A study of Mus musculus with 6 samples.

Results

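The replication-dependent histone genes are the clustered genes from which dividing cells make the bulk of their histones. They were taken as all GENCODE M21 mouse genes whose symbol begins Hist1h, Hist2h, Hist3h or Hist4h, which gave 70 genes. Of these, 68 had a row among the 49671 genes of the count table, 59 had enough reads to be tested, and 9 did not. Hist1h2bh and Hist1h2bm had no row under their M21 identifiers and were not analysed here. By the class in their symbol, the 68 were 6 genes of H1, 20 of H2A, 17 of H2B, 12 of H3 and 13 of H4. Of the 68, 65 were annotated as protein-coding. Hist1h2aj and Hist1h2al of H2A and Hist3h2bb-ps of H2B were annotated as pseudogenes and were kept in the class sums. Hist1h2al held 4.61% to 5.99% of the H2A counts of a library. The main set lies on mouse chromosome 13, with smaller groups on chromosomes 3, 11 and 6. They were followed in BALB/c bone marrow cells enriched for stem and progenitor cells, infected with a retrovirus whose short hairpin RNA either targeted Cxxc5 (shCxxc5) or had no target (shCtrl). Cxxc5 encodes a zinc finger protein that binds unmethylated CpG. Infected LSK cells (lineage-negative, Sca-1-positive, Kit-positive, the fraction that holds the blood stem cells) were sorted by their GFP signal and pooled from several animals, so a library is a pool and not an animal. There were 6 libraries, 3 of each group, with the replicate numbers 2, 3 and 4 in both. No label gives the age of the animals or says that the 3 libraries of a group came from separate infections. The p-values therefore describe the spread among these libraries, which may be technical.

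In the nucleosome, DNA winds around a core of H2A, H2B, H3 and H4, and H1 binds the linker DNA where it enters and leaves. Cells transcribe the clustered genes mainly in S phase, when new DNA has to be packed. Their mRNAs are unusual in that they end not in a poly(A) tail but in a short hairpin, the histone stem-loop, which the protein SLBP binds and near which the U7 snRNP directs the cut. Library preparation used a stranded mRNA kit of a type that purifies RNA by its poly(A) tail. Counts of these genes therefore come from polyadenylated forms of the mRNAs, from tail-less mRNA carried through the purification, or from both, and these sources cannot be told apart here.

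The stem-loop is printed because it is what sets these mRNAs apart and because its letters differ between classes. It was searched for as a fixed pattern of 16 bases with few letters free to vary. A match was found between 21 and 58 bases after the stop codon in the M21 transcripts of 42 of the 70 genes. In capitals are the 6 bases of each arm that pair with each other, and in lower case the 4 bases of the loop. The first form occurred in 26 genes of the classes H1, H2A, H2B and H3, the second in 6 genes of H1, H2B and H3, and the third in 1 gene of H2A. The last 2 forms occurred in 7 and 2 genes, all of class H4, whose arms differ from those of the other classes.
most common form: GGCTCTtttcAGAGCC
second form: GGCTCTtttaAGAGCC
single H2A gene: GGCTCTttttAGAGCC
common H4 form: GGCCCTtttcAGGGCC
second H4 form: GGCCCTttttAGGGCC
Of the 28 genes without a match in their annotated transcripts, 15 had models that stop less than 20 bases after the stop codon and so leave no room for it. In the rest, a stem-loop with other letters would have been missed. In the other direction, 17 genes had a model that runs more than 200 bases past the stem-loop, up to 4884 bases in Hist1h1d.

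The region before the start of transcription also differs by class. RefSeq promoter windows (GRCm38.p6, from 250 bases before to 50 after the start) matched 61 of the 70 genes by symbol and gave 62 windows. Both strands were searched for CCAAT, the box that NF-Y binds, for ATTTGCAT, the octamer that Oct factors bind, for AAACACA, the box named for H1 genes, and for TATAAA, the core promoter box near the start. CCAAT was in 100% of the windows of H1 (6), H2A (17), H2B (17) and H3 (10), in 25.0% of the 12 windows of H4 and in 37.4% of all 32851 promoter windows of the table. ATTTGCAT was in 7 of 17 windows of H2A and 7 of 17 of H2B, in none of the other classes and in 1.74% of all windows. Windows of H2A and H2B genes that face each other overlap, so these counts share sequence. AAACACA was in 5 of 6 windows of H1, in 2 of 17 of H2A and 2 of 17 of H2B, in none of H3 or H4, and in 7.18% of all windows. TATAAA was in 35 of the 62 windows and in 13.6% of all windows. The promoters of 1 H1 gene and 2 H2B genes whose counts are described further on follow, 5′ to 3′ on the strand of the gene, with these letters on either strand in capitals.
Hist1h1b, chr13:21780576-21780875, minus strand: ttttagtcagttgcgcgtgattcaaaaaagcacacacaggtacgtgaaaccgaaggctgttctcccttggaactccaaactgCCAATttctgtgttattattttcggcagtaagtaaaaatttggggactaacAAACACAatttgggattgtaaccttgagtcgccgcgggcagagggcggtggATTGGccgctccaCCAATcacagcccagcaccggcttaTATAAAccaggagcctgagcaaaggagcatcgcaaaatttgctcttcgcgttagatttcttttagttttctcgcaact
Hist1h2bj, chr13:22042948-22043247, plus strand: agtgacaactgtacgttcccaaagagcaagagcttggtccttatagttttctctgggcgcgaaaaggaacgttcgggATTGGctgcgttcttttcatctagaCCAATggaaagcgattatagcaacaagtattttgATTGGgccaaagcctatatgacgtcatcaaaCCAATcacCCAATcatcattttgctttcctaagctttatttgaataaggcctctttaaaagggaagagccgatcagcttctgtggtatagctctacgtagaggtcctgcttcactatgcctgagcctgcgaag
Hist2h2bb, chr3:96269450-96269749, plus strand: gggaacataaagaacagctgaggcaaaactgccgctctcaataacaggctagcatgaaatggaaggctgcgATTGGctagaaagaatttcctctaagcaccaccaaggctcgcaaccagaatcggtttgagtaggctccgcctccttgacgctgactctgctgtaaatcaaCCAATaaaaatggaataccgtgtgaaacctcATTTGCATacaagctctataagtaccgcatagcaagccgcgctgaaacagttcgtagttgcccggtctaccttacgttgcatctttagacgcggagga
Hist1h1b shows the H1 box, CCAAT boxes and the TATA box of an H1 promoter. The Hist1h2bj window is also most of the window of Hist1h2ag, the H2A gene that is read in the other direction, and holds 5 CCAAT boxes and no octamer. Hist2h2bb has the octamer. A match of letters is a description of these windows and shows no binding.

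Library totals lay between 15002414 and 27754019 counts. Cxxc5, the target, had 82.2, 59.9 and 57.9 CPM (counts per 1000000 counts of the library, scaled by TMM) in shCtrl 2, 3 and 4 and 6.74, 17.4 and 17.9 CPM in shCxxc5 2, 3 and 4, which is 8.20%, 29.1% and 30.9% of the control with the same number. The 2 libraries numbered 2 stood apart from the other 4 in many genes. The summed CPM of 6 megakaryocyte and platelet markers was 5006 and 1232 in shCtrl 2 and shCxxc5 2 but between 89.9 and 147 elsewhere, and that of 6 granulocyte and monocyte markers was 5297 in shCxxc5 2 but between 738 and 1114 elsewhere. The 4 LSK markers (Kit, Ly6a, Cd34, Flt3) summed to 1098 and 806 CPM in the pair numbered 2 and to between 2275 and 2360 in the others. The 5 mast cell and basophil markers summed to 1418 CPM in shCxxc5 2 and to between 243 and 360 elsewhere, and the erythroid markers to 45 and 132 CPM in shCtrl 2 and shCxxc5 2 and to between 9.18 and 14.0 elsewhere. B cell markers summed to at most 1.31 CPM and T cell markers to at most 2.62 CPM. Comparisons of the histone genes are therefore given over all 6 libraries and again over replicates 3 and 4 alone.

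Histone genes took 1.33%, 1.63% and 1.75% of all counts in shCtrl 2, 3 and 4 and 1.45%, 1.70% and 1.69% in shCxxc5 2, 3 and 4. These shares overlapped between the groups and were lowest in the 2 libraries numbered 2. Over all libraries H1 genes held 37.3% of the histone counts, H4 22.9%, H3 16.1%, H2B 14.3% and H2A 9.48%. Levels of single genes were compared per kilobase of annotated exon. Among H1 genes, which encode the linker histones, Hist1h1a (1525 CPM per kb), Hist1h1b (1084) and Hist1h1c (963) were highest. Among core histone genes the highest were Hist1h2ak (935), Hist1h2ab (436) and Hist2h2ac (415) of H2A, and Hist2h2bb (1479), Hist1h2bb (964) and Hist1h2bj (407) of H2B. They were followed in H3 by Hist1h3e (697), Hist1h3f (492) and Hist1h3b (442), and in H4 by Hist1h4h (1018), Hist1h4k (802) and Hist1h4d (722). Since models differ in how far they run past the stem-loop, the length behind these levels is uncertain. Hist1h1t, the H1 gene of the testis, was at 0.0695 to 1.23 CPM, which held at most 0.0251% of the H1 counts in any library.

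Many copies are nearly the same in sequence. Among protein-coding members, H4 coding sequences of equal length were 85.3% to 100% identical, H3 93.7% to 99.8%, H2B 82.9% to 100% and H2A 77.6% to 100%. Of the 9 genes that were not tested, 4 were at 0 in every library (Hist1h2ao, Hist1h2ap, Hist2h2aa1 and Hist2h3c1) and the other 5 (Hist1h2aj, Hist2h2aa2, Hist1h2bq, Hist1h2br and Hist1h4m) had at most 33 counts in all libraries together. Between 88.7% and 100% of the 50-base stretches of these 9 genes also occur in another annotated transcript, so a low count there does not show low transcription. Reads of such copies may have been discarded or placed on another copy. The sums over each class were therefore compared as well, since they do not depend on how counted reads were split between copies of 1 class. Reads that were discarded are missing from the sums too. Hist1h1e and Hist1h2be, of different classes, share exon bases on the same strand.

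Summed over its genes, H2B was higher in shCxxc5 in each of the 3 pairs. H2B had 1719, 2272 and 2449 CPM in shCtrl 2, 3 and 4 and 1998, 2626 and 2662 CPM in shCxxc5 2, 3 and 4. Each shCxxc5 library was above the control of its own number, by 1.16, 1.16 and 1.09 times, but shCxxc5 2 was below shCtrl 3 and 4, so the groups overlapped. The mean log2 ratio of shCxxc5 over shCtrl within numbers was 0.18 ± 0.054 (SD, n = 3). No p is given for a sum over chosen genes. In bulk RNA a larger share of cells in S phase and more histone mRNA per cell cannot be told apart. The sum leans on Hist2h2bb, its highest gene: without it the mean log2 ratio was 0.11, and the median over the members was 0.11 as well.

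For H2A the sums were 1253, 1486 and 1655 CPM in shCtrl and 1346, 1678 and 1656 CPM in shCxxc5. Pairs 2 and 3 were higher in shCxxc5 and the pair numbered 4 was level, and the mean log2 ratio was 0.093 ± 0.088 (SD, n = 3). H1 sums were 4886, 6009 and 6522 CPM in shCtrl and 5609, 6204 and 6277 CPM in shCxxc5, and the log2 ratios were 0.20, 0.05 and -0.06. Their mean of 0.063 ± 0.13 (SD, n = 3) turned to -0.0045 without the pair numbered 2. H3, with 2195, 2714 and 2844 CPM against 2224, 2732 and 2694 CPM, and H4, with 3014, 3943 and 4226 CPM against 2801, 4127 and 3975 CPM, had mean log2 ratios of -0.016 ± 0.054 and -0.043 ± 0.094 (SD, n = 3), both smaller than their spread. The sign for H3 rests on the pair numbered 4: the mean was 0.014 without it. Over all histone genes the mean was 0.047 ± 0.072 (SD, n = 3).

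**Figure D1:**
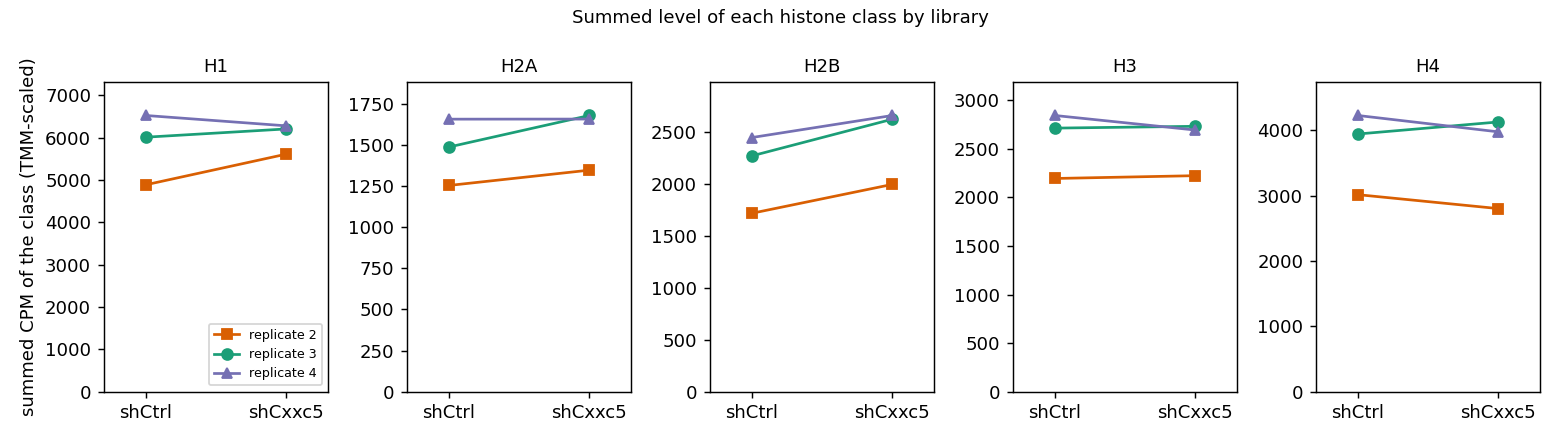
Summed CPM (TMM-scaled) of the genes of each histone class, 1 panel per class, with a point for each of the 3 shCtrl and 3 shCxxc5 libraries and a line joining the 2 libraries with the same replicate number. The H2B line goes up in each of the 3 pairs, and in every class the pair numbered 2 lies below the others in shCtrl.

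With all 6 libraries in 1 fit, edgeR's quasi-likelihood test with Benjamini-Hochberg adjustment called 0 of the 59 tested histone genes, and it called 0% of the 14637 tested genes of the whole table. At an unadjusted p under 0.05 it held 1 histone gene, against 3.93% of all genes. DESeq2 called 0 histone genes as well, and 0.130% of all genes. With the replicate number as a block, edgeR called 0 and DESeq2 called Hist2h2bb (adjusted p = 0.0384) and Hist1h2an (adjusted p = 0.040), both higher, among 147 genes of the table. The common dispersion corresponded to a coefficient of variation of 0.312 in this fit and of 0.0294 in that of replicates 3 and 4, without the pair numbered 2. The smallest unadjusted p-values were those of Hist1h2bc, an H2B gene with a log2 fold change of 0.30 (SE 0.12), Hist2h3b, an H3 gene with -0.30 (SE 0.14), and Hist1h2an, an H2A gene with 0.45 (SE 0.22). Each had an adjusted p of 0.940 by edgeR. The median log2 fold change was 0.05 over the tested histone genes and -0.02 over all genes, and it was -0.04 over the histone genes without shCtrl 2. By groups that do not overlap, 1 histone gene was higher (Hist1h2aa, at 0.580 to 0.803 CPM) and 0 were lower, against 6.72% and 6.35% of all genes. Higher in all 3 pairs were 20 histone genes, against 19.0% of all genes, and lower in all 3 pairs were 8, against 22.4% of all genes. The 20 were 6 of H2A, 6 of H2B, 5 of H3, 2 of H1 and 1 of H4, and the 8 were 4 of H4, 3 of H3 and 1 of H1.

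In replicates 3 and 4 alone, 2 libraries against 2, the 8 genes of H2A and H2B that passed the test were higher in shCxxc5, while H1, H3 and H4 each held genes that rose and genes that fell. Of the 59 tested, 14 rose and 6 fell (edgeR quasi-likelihood test, adjusted p under 0.05), against 11% of all 14193 genes tested there that rose and 9.00% that fell, 20% in either direction. The counts were 5 higher and 0 lower of 15 H2B genes, 3 and 0 of 15 H2A genes, 1 and 1 of 6 H1 genes, 3 and 3 of 11 H3 genes, and 2 and 2 of 12 H4 genes. The difference between classes was not tested. The 3 called of 15 in H2A are at the background share of 20% in either direction, while the share of all genes that rose was 11%. With the replicate number as a block the total was 19 higher and 6 lower by edgeR, where 3300 of all 14193 genes were called. By DESeq2 with the block it was 7 higher and 2 lower, where 601 of the 14193 were called. Fits with a library left out also differ in the genes called over the whole table, as the last section gives, so the 20% does not apply to them. The split depends on single libraries. It was 7 higher and 9 lower without shCtrl 3, 17 and 3 without shCtrl 4, 11 and 3 without shCxxc5 3, and 14 and 3 without shCxxc5 4, where the lone library left in a group is assumed to vary like the other pair. Of the H2A and H2B genes, 1 H2B gene fell without shCtrl 3, and 0 fell in the other 3 of these fits. The median log2 fold change was 0.15 for H2A, 0.15 for H2B, 0.06 for H3, 0.02 for H1 and -0.03 for H4, against -0.00 for all genes. The 2 pairs differed: medians in pairs 3 and 4 were 0.29 and 0.05 for H2A and 0.20 and 0.05 for H2B. They were 0.05 and 0.03 for H3, 0.07 and -0.04 for H1, and 0.004 and -0.14 for H4. In the same libraries 28 of 50 listed S phase genes were higher and 0 lower. The 4 LSK markers summed to between 2275 and 2360 CPM in all 4, while the megakaryocyte and platelet markers summed to 138 and 147 CPM in shCtrl 3 and 4 and to 92.1 and 89.9 CPM in shCxxc5 3 and 4. The granulocyte and monocyte markers summed to 935 and 970 CPM against 1108 and 1114 CPM. Of these 6 genes 2 were called higher and 2 lower, with a median log2 fold change of -0.05, so the sum does not speak for each marker. The part of these differences in the histone counts was not tested.

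**Figure D2:**
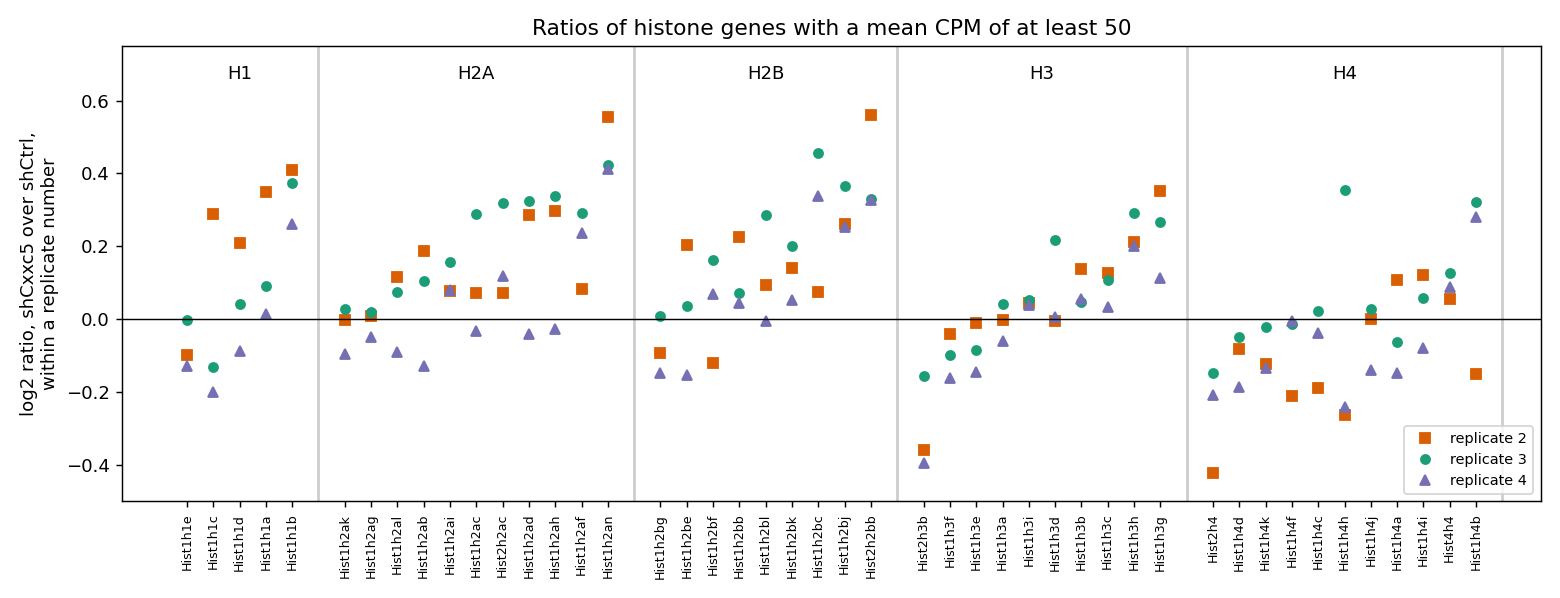
Log2 ratio of shCxxc5 over shCtrl within each replicate number, for the 46 tested histone genes with a mean of at least 50 CPM, grouped by class, with 1 marker for each of the 3 pairs. Markers of the pair numbered 2 scatter more widely than those of pairs 3 and 4. For H2A and H2B genes, markers of pair 3 mostly lie above 0, while those of pair 4 lie on both sides of 0.

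Among the linker histone genes Hist1h1b rose and Hist1h1c fell. Hist1h1b (chromosome 13, 21779883 to 21780625 on GRCm38, minus strand, intronless) had 575, 744 and 813 CPM in shCtrl 2, 3 and 4 and 764, 964 and 973 CPM in shCxxc5 2, 3 and 4. Every shCxxc5 library was above the control of its number, and only shCxxc5 2 overlapped the controls. In replicates 3 and 4 its log2 fold change was 0.32 (SE 0.04, adjusted p = 8.1e-08 by edgeR). Its share of all H1 counts was between 11.8% and 12.5% in the 3 shCtrl libraries and 13.6%, 15.5% and 15.5% in shCxxc5. Hist1h1c (chromosome 13, 23738808 to 23740367, plus strand) had 1230, 1611 and 1711 CPM in shCtrl and 1503, 1470 and 1489 CPM in shCxxc5. It was lower in pairs 3 and 4 and higher in pair 2, whose log2 ratio was 0.29, and its log2 fold change in replicates 3 and 4 was -0.16 (SE 0.03, adjusted p = 0.000469 by edgeR). The difference between pair 2 and the others was not tested. Hist1h1a, the H1 gene of highest level per kilobase, had 1249 and 1320 CPM in shCtrl 3 and 4 and 1331 and 1332 CPM in shCxxc5 3 and 4 and did not pass (adjusted p = 0.221 by edgeR).

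Of the H2A genes that passed, Hist1h2an had the largest rise. It stands on chromosome 13 (21786826 to 21787218, minus strand) and had 37.6, 55.3 and 59.3 CPM in shCtrl 2, 3 and 4 against 55.3, 74.1 and 78.9 CPM in shCxxc5 2, 3 and 4. The log2 ratios of the pairs were 0.55, 0.42 and 0.41, and the fold change over replicates 3 and 4 was 0.43 on the log2 scale (SE 0.06, adjusted p = 2.6e-06 by edgeR). Of its 50-base stretches, 85.8% also occur in another annotated transcript, so its count may depend on how reads of copies were placed. Among other called genes described below, that share was 79.7% for Hist1h2af, 79.7% for Hist2h3b and 93.9% for Hist1h3h. Hist2h2ac (chromosome 3, 96220361 to 96220880, minus strand) had 208 and 230 CPM in shCtrl 3 and 4 and 259 and 249 CPM in shCxxc5 3 and 4, a log2 fold change of 0.23 (SE 0.04, adjusted p = 0.000217), which missed the threshold without shCtrl 3 (adjusted p = 0.0501). The H2A genes of highest level, Hist1h2ak and Hist1h2ab, did not pass, with log2 fold changes of -0.03 (SE 0.04) and -0.01 (SE 0.06). Hist1h2af was the remaining H2A gene that rose, by 0.27 on the log2 scale. Each H2A gene shares exon bases with a predicted gene on the other strand, and no source used here gives the strand setting of the counting. Reads of a gene and its antisense partner could therefore not be told apart over the bases they share. The partners of the called genes had few counts of their own per library: 0 to 4 for Hist1h2an, 1 to 12 for Hist2h2ac and 0 to 8 for Hist1h2af.

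Of the H2B genes, Hist2h2bb rose in each pair. It lies on chromosome 3 (96269752 to 96270132, plus strand) and had 347, 550 and 569 CPM in shCtrl 2, 3 and 4 and 512, 692 and 713 CPM in shCxxc5 2, 3 and 4. The log2 ratios were 0.56, 0.33 and 0.33, and the value over replicates 3 and 4 was 0.33 (SE 0.03, adjusted p = 1.21e-08 by edgeR). All 381 of its bases lie antisense to the predicted gene Gm20628, which had 141 to 212 counts per library, and 226 are shared on the same strand with the predicted gene Gm42743. Hist1h2bc (chromosome 13, 23684199 to 23692908, plus strand, with a spliced model) had 155, 153 and 168 CPM in shCtrl and 163, 209 and 212 CPM in shCxxc5. Both libraries of replicates 3 and 4 stood above all controls while shCxxc5 2 lay among them, and the log2 fold change over replicates 3 and 4 was 0.41 (SE 0.04, adjusted p = 4.48e-08). Hist1h2bj (chromosome 13, 22043214 to 22043676, plus strand), the H2B gene whose promoter is printed above, had 129, 178 and 201 CPM in shCtrl and 155, 229 and 239 CPM in shCxxc5, with a log2 fold change over replicates 3 and 4 of 0.32 (SE 0.05, adjusted p = 1.55e-05). Hist3h2ba (chromosome 11, 58948920 to 58949533, plus strand) was low, with 6.16 and 5.58 CPM in shCtrl 3 and 4 and 8.29 and 8.83 CPM in shCxxc5 3 and 4. It passed with a log2 fold change of 0.53 (SE 0.15, adjusted p = 0.0094), but in replicate 2 it had 9.72 CPM in shCtrl and 9.21 CPM in shCxxc5. Its call was lost without shCtrl 3 (adjusted p = 0.0505), without shCtrl 4 (adjusted p = 0.0645) and without shCxxc5 4 (adjusted p = 0.0691), and with DESeq2 (adjusted p = 0.108). Hist1h2bb, second in level among H2B genes, had 525 and 550 CPM in shCtrl 3 and 4 and 551 and 567 CPM in shCxxc5 3 and 4 and did not pass (adjusted p = 0.20 by edgeR).

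**Figure D3:**
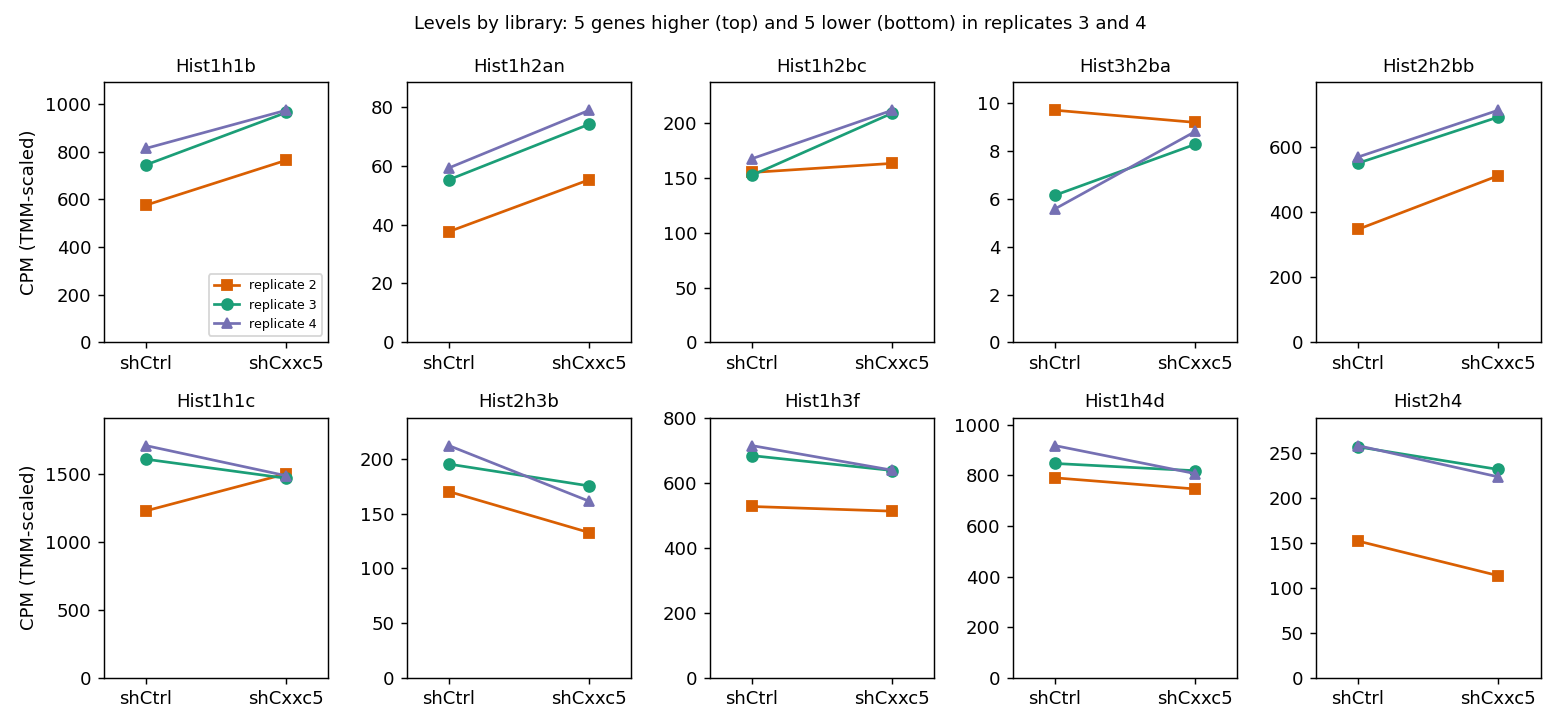
CPM (TMM-scaled) of the 5 called histone genes with the largest rise (top) and the 5 with the largest fall (bottom) in replicates 3 and 4, with a point for each of the 6 libraries and lines joining libraries of the same replicate number. In the bottom row Hist1h1c is the gene whose pair numbered 2 goes up while pairs 3 and 4 go down.

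H3 and H4 each held genes that rose and genes that fell. Hist2h3b (chromosome 3, 96268654 to 96269141, plus strand) had 170, 196 and 213 CPM in shCtrl 2, 3 and 4 and 133, 176 and 162 CPM in shCxxc5 2, 3 and 4. It was lower in each pair and only shCtrl 2 overlapped the shCxxc5 libraries. Its log2 fold change over replicates 3 and 4 was -0.26 (SE 0.04, adjusted p = 7.49e-05 by edgeR), and 488 of its bases lie antisense to Gm20628. Hist1h3f (chromosome 13, 23544052 to 23545312, plus strand) had 685 and 716 CPM in shCtrl 3 and 4 and 639 and 640 CPM in shCxxc5 3 and 4, and Hist1h3e (chromosome 13, 23561534 to 23562369, minus strand) had 631 and 655 CPM against 595 and 593 CPM. Both calls, with log2 fold changes of -0.13 and -0.11, were lost without shCtrl 4 (adjusted p = 0.0866 and 0.141), without shCxxc5 3 (0.0808 and 0.122) and without shCxxc5 4 (0.0511 and 0.120). That of Hist1h3e was lost with DESeq2 too (adjusted p = 0.0558). The H3 genes that rose were Hist1h3h, with 73.1 and 83.3 CPM in shCtrl 3 and 4 and 89.5 and 95.7 CPM in shCxxc5 3 and 4 (log2 fold change 0.25), Hist1h3g (0.20) and Hist1h3d (0.12). Without shCtrl 3 all 3 missed the threshold (adjusted p = 0.157, 0.0684 and 0.369), and Hist1h3d also without shCtrl 4 (0.0754) or shCxxc5 3 (0.691). The call of Hist1h3d was lost with DESeq2 too (adjusted p = 0.186). By edgeR it was lost without robust fitting (0.0566), under upper-quartile scaling (0.0879) and with library size as the only scaling (0.121). Hist1h3b, next in level, had a log2 fold change of 0.06 (SE 0.04) and did not pass.

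Of the H4 genes, Hist2h4 (chromosome 3, 96261682 to 96263311, minus strand) had 152, 257 and 258 CPM in shCtrl 2, 3 and 4 and 113, 231 and 223 CPM in shCxxc5 2, 3 and 4. It was lower in each pair, and its log2 fold change over replicates 3 and 4 was -0.17 (SE 0.04, adjusted p = 0.00116 by edgeR). That value lay between -0.20 and -0.15 with each of the 4 libraries left out. The call was lost by DESeq2 with the replicate block (adjusted p = 0.106). Hist1h4d (chromosome 13, 23581598 to 23582735, plus strand) had 848 and 918 CPM in shCtrl 3 and 4 and 819 and 807 CPM in shCxxc5 3 and 4, with a log2 fold change of -0.11 (SE 0.03, adjusted p = 0.0198). That call was lost without shCtrl 4 (adjusted p = 0.338), without shCxxc5 3 (0.0997), without shCxxc5 4 (0.139) and with DESeq2 (0.0760). Hist1h4b had the largest called change of the class. It had 143, 147 and 152 CPM in shCtrl 2, 3 and 4 and 129, 183 and 184 CPM in shCxxc5 2, 3 and 4, with pair 2 lower and the other pairs higher. Its log2 fold change over replicates 3 and 4 was 0.31 (SE 0.04, adjusted p = 1.74e-06 by edgeR), and it stayed called with each of the 4 libraries left out. Hist4h4 rose by 0.11 on the log2 scale, which was lost without shCtrl 3 (adjusted p = 0.204), shCxxc5 3 (0.0605) or shCxxc5 4 (0.151). The call of Hist4h4 was lost with DESeq2 too (adjusted p = 0.0520) and by edgeR with library size as the only scaling (0.0632). Hist1h4h, the H4 gene of highest level per kilobase, did not pass, and its 404, 489 and 552 CPM in shCtrl and 337, 624 and 467 CPM in shCxxc5 put shCxxc5 3 above every other library. Hist1h4k had a log2 fold change of -0.07 (SE 0.04) and did not pass.

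Genes with and without long annotated ends are described by their calls in replicates 3 and 4, where 11% of all genes rose and 9.00% fell. Of 15 tested genes whose model runs more than 200 bases past the stem-loop, 2 rose and 5 fell, with a median log2 fold change of -0.02. Of 19 whose model stops within 200 bases of it, 4 rose and 0 fell (median 0.06). Of 25 without a match to the stem-loop pattern in the model, 8 rose and 1 fell (median 0.17). Split by how much of a gene also occurs elsewhere, 6 rose and 4 fell of 34 genes with under 50% of their 50-base stretches shared (median 0.06), and 8 rose and 2 fell of 25 genes with at least 50% shared (median 0.12). By location, 10 rose and 4 fell of 48 genes on chromosome 13, and 2 rose and 2 fell of 7 on chromosome 3. None of these differences between sets was tested.

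Many H2A and H2B genes stand head to head and share 1 promoter region. There were 13 such pairs, each of 1 H2A and 1 H2B gene with starts 173 to 306 bases apart, and both genes were tested in 11. In the tested pair of Hist3h2a and Hist3h2bb-ps the H2B member is annotated as a pseudogene. In replicates 3 and 4, 5 pairs had 1 partner called, each time higher, 0 had both called, and 6 had none. Single genes of the table were called at 20% in either direction in this fit and at 11% higher. The count of called partners is near the share in either direction. Hist1h2bc rose by 0.41 on the log2 scale (SE 0.04) where its partner Hist1h2ac, with its start 251 bases away, had 0.14 (SE 0.08). Hist1h2bj, at 0.32 (SE 0.05), faces Hist1h2ag, 270 bases away, at -0.01 (SE 0.06). Hist1h2an, at 0.43 (SE 0.06), faces Hist1h2bp, 243 bases away, at -0.06 (SE 0.16). In the other 2 pairs the partners were closer in value. Hist2h2ac had 0.23 (SE 0.04) beside 0.16 (SE 0.14) for Hist2h2be, and Hist1h2bk had 0.13 (SE 0.04) beside 0.17 (SE 0.06) for Hist1h2ah. The call of Hist1h2bk was lost without shCtrl 3 (adjusted p = 0.345), without shCxxc5 3 (0.205) and with DESeq2 (0.123). The differences within pairs were not tested, and copies that lose reads to one another lie on both sides.

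**Figure D4:**
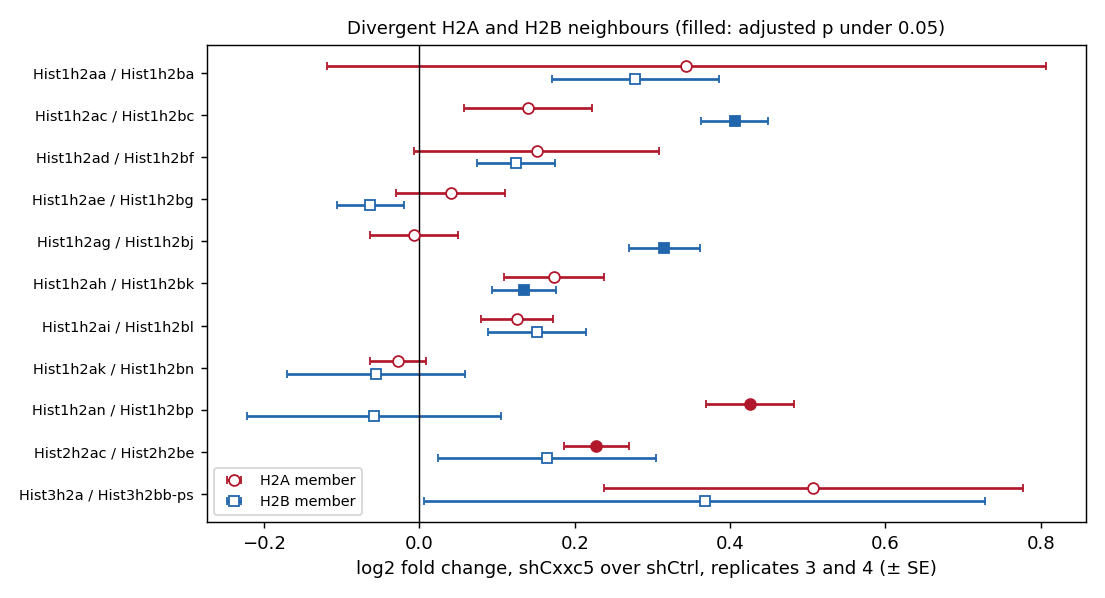
Log2 fold change of shCxxc5 over shCtrl in replicates 3 and 4 for the 2 genes of each of the 11 tested head-to-head H2A and H2B pairs, with bars of 1 SE and filled points for called genes. In the pairs of Hist1h2bc, Hist1h2bj and Hist1h2an the called gene lies above its partner by more than the bars.

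The libraries numbered 2 had lower summed CPM of histone genes than the others in both groups. With the group in the fit, 36 of the 59 tested histone genes were lower in replicate 2 than in replicates 3 and 4 and 1 was higher (edgeR quasi-likelihood test), against 18.7% and 17.7% of all genes, 36.4% in either direction. The median log2 difference was -0.33 over the histone genes and -0.00 over all genes. By class the medians were -0.20 for H1, -0.24 for H2A, -0.28 for H2B, -0.30 for H3 and -0.48 for H4, and 2 of 6, 8 of 15, 8 of 15, 9 of 11 and 9 of 12 genes were lower. Hist2h4 had -0.88 and Hist1h1a -0.77, with 680 and 867 CPM in the libraries numbered 2 and 1249 to 1332 CPM in the others. Hist1h1e went the other way without passing, at 0.11, and its share of the H1 counts was 27.4% in shCtrl 2 and 22.3% in shCxxc5 2 against 18.6% to 19.6% elsewhere. The gene that was higher was Hist3h2a, at 3.04 and 5.91 CPM against 1.61 to 2.54 CPM. S phase genes differed in the same libraries: 28 of 50 were lower in replicate 2 and 0 higher, with a median of -0.26. The summed megakaryocyte and platelet markers and erythroid markers were higher in both libraries numbered 2, as given above, while the granulocyte and monocyte sum was high in shCxxc5 2 and lowest in shCtrl 2. The part of these in the lower histone levels was not tested.

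**Figure D5:**
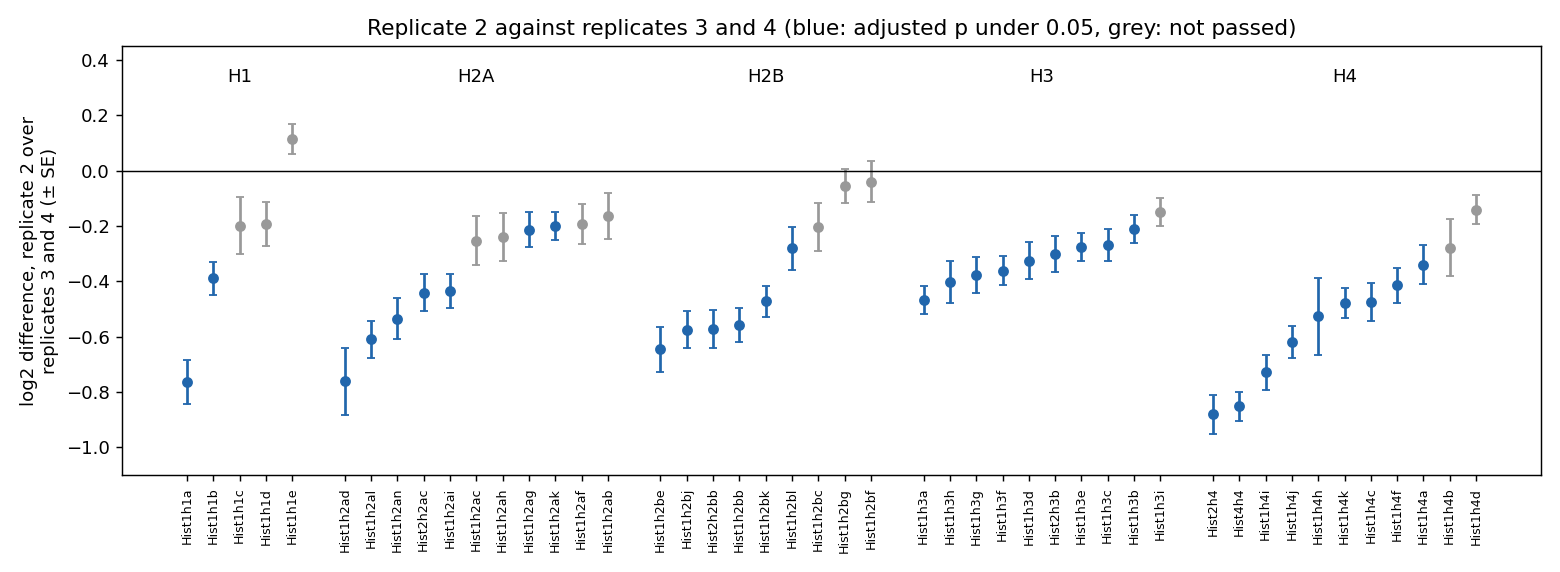
Log2 difference between the libraries numbered 2 and those numbered 3 and 4, with the group in the fit, for the 46 tested histone genes with a mean of at least 50 CPM, grouped by class, with bars of 1 SE. Most points lie below 0, with the lowest in class H4.

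The genes that make, process and carry histones were read from fixed lists, in replicates 3 and 4. Of 11 genes of histone variants, which stand outside the clusters, 1 was higher and 0 lower, with a median log2 fold change of 0.01. That gene was H2afx, the variant phosphorylated at DNA breaks, whose mRNA is known in a stem-loop and a polyadenylated form, at 0.10 (adjusted p = 0.0382), and its call was lost with DESeq2 (adjusted p = 0.143), under upper-quartile scaling (0.0853) and without shCtrl 3 (0.357), shCxxc5 3 (0.217) or shCxxc5 4 (0.136). H2afz, the H2A variant of promoters, had 13.7, 32.7 and 36.0 CPM in shCtrl 2, 3 and 4 and 43.5, 39.0 and 38.4 CPM in shCxxc5, with shCtrl 2 far below the rest, and did not pass (adjusted p = 0.0702 by edgeR), though it did with the replicate number as a block (adjusted p = 0.0478). H2afj had a log2 fold change of -0.10 and did not pass. Of 19 tested factors of histone mRNA transcription and processing, 5 were higher and 0 lower (median 0.07). Of all genes 11% were higher and 9.00% lower, 20% in either direction. Slbp, whose protein binds the stem-loop printed above, had 119, 118 and 128 CPM in shCtrl and 131, 139 and 145 CPM in shCxxc5, so that the groups did not overlap. Its log2 fold change was 0.22 (SE 0.05, adjusted p = 0.000713 by edgeR), which was lost without shCtrl 3 (adjusted p = 0.0728). Srrt, whose protein works with the nuclear cap-binding complex, and Ncbp2, which encodes a subunit of it, rose by 0.28 and 0.32 on the log2 scale.

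Of 22 histone chaperones, 12 were higher and 2 lower in replicates 3 and 4 (median 0.12), against 11% and 9.00% of all genes. Hira, which places the H3 variant outside S phase, was among those higher at 0.24 (SE 0.08, adjusted p = 0.0376 by edgeR), a call lost with DESeq2 (adjusted p = 0.202), under upper-quartile scaling (0.0608) and without shCtrl 3 (0.116), shCtrl 4 (0.143) or shCxxc5 4 (0.330). Asf1a, which hands H3 and H4 to the assembly factors, and Ubn1, a partner of Hira, did not pass, with 0.07 (SE 0.06) and -0.12 (SE 0.05). With the replicate number as a block Ubn1 passed (adjusted p = 0.0262). Of 50 S phase genes the 28 that rose included Fen1, a nuclease of lagging-strand synthesis, at 0.49 (SE 0.04), Cdc6, a loader of the replicative helicase, at 0.34 (SE 0.05), and Rrm1, a subunit of ribonucleotide reductase, at 0.23 (SE 0.03). The median over all 50 S phase genes, 0.15, stood beside 0.08 for all tested histone genes and 0.15 for those of H2A and of H2B. By pair they were less alike. In pairs 3 and 4 the medians were 0.15 and 0.14 for S phase genes, 0.29 and 0.05 for H2A, and 0.20 and 0.05 for H2B. In all 3 pairs, 30 of the 50 S phase genes were higher and 0 lower, beside 20 and 8 of the 59 histone genes and 19.0% and 22.4% of all genes. No gene of these 4 lists was called over all 6 libraries by edgeR, and DESeq2 called Fen1 (adjusted p = 0.0140).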

How the data were processed

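Raw read counts per gene in 6 libraries were deposited by the authors. The submitters' processing notes name STAR 2.5.2b, featureCounts 1.5.1, DESeq2 and the build GRCm38. No source used here gives the strand setting or the handling of reads with several matches. Symbols came from GENCODE M21 by identifier. Counts were scaled by TMM and tested with edgeR 4.0.16 in R 4.3.3 (filterByExpr, robust quasi-likelihood, group only, Benjamini-Hochberg over all tested genes, threshold 0.05), on all 6 libraries and on replicates 3 and 4. SE was taken as the size of the log2 fold change over the root of F. Log2 ratios of single genes within replicate numbers use log2 CPM with a prior count of 2, and class sums were compared without a test. Alternatives were DESeq2 1.42.0, limma 3.58.1, other scalings and filters, the replicate block and left-out libraries.

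Libraries with the same number deviated together from their group means (correlations across genes 0.670, 0.554 and 0.489 for numbers 2, 3 and 4), but replicates 3 and 4 correlated as well across numbers (0.475 and 0.489), and no label says what a number marks. The tests are without the number unless stated. For the genes named by the rule below, edgeR fits with it as a block stand beside a call they change. Histone genes and named context genes that lose their call by DESeq2 with the block are listed in the last section. Named genes were the 3 of highest level per kilobase in each class, the 3 of smallest unadjusted p over all 6 libraries, the 5 of largest change per direction among those called in replicates 3 and 4, Cxxc5, and the 3 of smallest p of each context list. Hist1h1e, Hist1h2aa, Hist3h2a and genes listed by name as called or as partners (Hist1h4b among them) were added after their values were seen. The members, the lists and the comparison of replicates 3 and 4 were chosen with earlier results of these data known.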

Additional observations from a re-analysis of the deposited data

How the results depend on the processing

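With the replicate block, edgeR called 0 genes and 0 histone genes over all 6 libraries, and 3300 genes and 25 histone genes over replicates 3 and 4. Over all 6 libraries DESeq2 called 19 genes, and with the replicate block 147 genes and 2 histone genes, Hist2h2bb (adjusted p = 0.0384) and Hist1h2an (adjusted p = 0.040), both higher. Over replicates 3 and 4 it called 1353 genes, and with the block 601 genes and 9 histone genes. In that fit Hist1h2af, Hist1h2bk, Hist1h3d, Hist1h3e, Hist1h3f, Hist1h3g, Hist1h3h, Hist1h4d, Hist2h4, Hist3h2ba and Hist4h4 missed the threshold. So did H2afx, Slbp, Ncbp2 and Hira of the context lists. The block in DESeq2 was added after seeing the data. Leaving out 1 library at a time gave 1507 to 2043 genes and 14 to 20 histone genes over replicates 3 and 4. The H1 sum had mean log2 ratios from -0.0045 to 0.12 with 1 replicate number left out, and the H3 sum from -0.034 to 0.014. The H2B sum was 0.11 without its highest member, 0.12 without members that share exon bases and 0.11 as a median, and the H3 sum was 0.010, 0.0044 and 0.041 in the same settings. No such value exists for H2A, all of whose members share bases. With no filter Hist1h4h turned to 0.0035 over all 6 libraries, and with limma-voom Hist1h2ab turned to 0.0056 over replicates 3 and 4. With 1 library left out of all 6, values ranged from -0.13 to 0.30 for Hist1h1a, -0.16 to 0.0755 for Hist1h1c, -0.038 to 0.16 for Hist1h2ab, -0.094 to 0.042 for Hist1h2ak, -0.084 to 0.24 for Hist1h2bb, -0.0028 to 0.14 for Hist1h3b, -0.26 to 0.18 for Hist1h4h, -0.23 to 0.059 for Hist1h4k and -0.44 to 0.034 for Hist2h4. Out of replicates 3 and 4 they ranged from -0.00028 to 0.15 for Asf1a, -0.13 to 0.11 for Hist1h2ab, -0.074 to 0.013 for Hist1h2ak and -0.15 to 0.27 for Hist1h4h. Beyond what is named in the text, causes of these changes were not tested. The depth of 15002414 counts or more leaves the 13 tested histone genes under 50 CPM least precise.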
